A study of Prunus persica with 8 samples.

Results

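Scaffold 2 of the peach (Prunus persica) genome was described gene by gene and tree by tree in lateral shoot tips. Its members were all genes that the deposited table places on scaffold 2, apart from 1 gene left out by the rule of choice. They numbered 3161 of the 27864 genes listed, and ran from position 17598 to 26740628. Within the scaffold, no habit comparison or expression level decided which genes were members. Scaffold 2 itself was taken up with earlier results of these data known.

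RNA was sequenced from the shoot tips of 4 trees of weeping growth habit, numbered 1 to 4, and 4 trees of standard habit, numbered 7 to 10. All 8 were mature, field-grown trees from a segregating F2 population at a USDA ARS site. Each library held total RNA of 4 shoot tips of about 4 cm from 1 tree, sequenced as 50 bp unpaired reads, and the labels call the trees of a habit biological replicates. The labels give no genotype beyond habit, and whole tips mix cell types, so that fewer cells of a type and less RNA per cell cannot be told apart.

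In an F2 population every tree inherits its own mix of the grandparental chromosomes, and neighbouring genes tend to be inherited together. A transcript level can then differ between sister trees along a stretch of chromosome, whatever their visible traits. Weeping and standard habit are the trait for which these trees were sorted: weeping branches bend downward, while standard crowns grow upright to spreading. The files do not pair gene identifiers with names, so genes are given below mainly by their position on scaffold 2, counted from 1.

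Libraries held 17011614 to 21584724 reads in genes, of which scaffold 2 took 9.61 to 10.1%. A count of 0 reads in a library allows a level of up to 0.139 to 0.176 CPM (3 reads), for counting error only. Levels are in CPM, the usual depth-scaled read count, with all reads in genes of a library as its total. Per the column names, weeping trees 3 and 4 were run on lane 8 and the other 6 trees on lane 6, so lane overlaps in part with habit. By a rule given below, weeping tree 1 and standard tree 8 together stood apart in 18 of 2088 scaffold 2 genes. Habit calls are given with and without both trees.

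Weeping shoot tips had slightly more of their reads on scaffold 2 than standard shoot tips. The share was 10.1%, 10.0%, 10.1% and 9.91% in weeping trees 1 to 4, against 9.85%, 9.61%, 9.72% and 9.79% in standard trees 7 to 10. The groups did not overlap, although the lowest weeping tree and the highest standard tree lay close together. Means were 10.02% ± 0.081 in weeping and 9.74% ± 0.103 in standard trees (SD, n = 4 each), a difference of 0.278 percentage points. An exact two-sided permutation test gave p = 0.0286, the smallest that 4 against 4 trees allow. With only reads placed at a single position the difference was 0.228 points at the same p. The typical gene did not shift alike: the median log2 fold change, weeping over standard, was 0.0125 over tested genes of scaffold 2. Over all tested genes it was 0.007. The shares of other scaffolds were not compared.

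The first question was which genes of scaffold 2 differed with growth habit. Enough reads for a test were found for 2075 of the 3161 genes, and 516 had no read in any library. By edgeR's quasi-likelihood test with Benjamini-Hochberg adjustment over all genes of the genome, 226 of the 2075 passed an adjusted p of 0.05, which is 10.9%, where 11.5% of all tested genes passed. Of these, 110 were higher in weeping trees (5.33% of all tested genes were) and 116 were lower (6.18% of all tested genes were). The share on scaffold 2 lay near that of the whole genome, so the count is no result about the scaffold. Changes were mostly modest, with a median log2 fold change of 0.57 among the higher and -0.86 among the lower genes. At least 2-fold changes were seen in 67 of the 2075 genes (3.23%), where 3.83% of all tested genes showed them. Of the 67, 16 were higher (0.771% of the 2075, beside 0.934% over all tested genes) and 51 were lower (2.46%, beside 2.9% over all tested genes). Weeping and standard values did not overlap in 362 tested genes, 17.4% against 18.3% of all tested genes.

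These calls depended on which trees entered the fit. Without weeping tree 1 and standard tree 8, 1 gene of scaffold 2 passed, where 0.097% of all tested genes did. Leaving out weeping tree 2 left 2 calls (0.0956%, where 0.107% of all tested genes passed). Leaving out weeping tree 4 gave 423 (20.2%, where 21% of all tested genes passed). With lane as a term of the model 163 genes passed (7.86%, where 8.7% of all tested genes did). Of the 163, 38.0% were higher in weeping trees, against 48.7% without the term. Over all scaffolds these shares were 38.9% and 46.3%. In the 6 trees of lane 6 alone 198 passed (9.28%, where 9.9% of all tested genes did), which also leaves out weeping trees 3 and 4. Of the 198, 33.3% were higher, beside 35.2% over all scaffolds. Without weeping tree 4 alone the share higher was 42.8%, beside 42.3% over all scaffolds. The shift in balance was thus not particular to scaffold 2. No standard tree was run on lane 8, so lane and these trees cannot be told apart.

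The gene with the smallest p among those higher in weeping trees was ppa015323m.g, at 20620395 to 20629963. It had 11.7, 9.59, 13.9 and 11.3 CPM in weeping trees 1 to 4, against 5.46, 5.46, 5.86 and 5.49 CPM in standard trees 7 to 10. Every weeping tree was above every standard tree, and the standard trees were nearly level. Its log2 fold change was 1.05 ± 0.13 (SE, edgeR adjusted p = 0.0127). The next was ppa008244m.g, at 19052595 to 19054447, with 112, 98.3, 109 and 121 CPM in weeping trees, against 45.6, 59.4, 62.9 and 59.5 CPM in standard trees. The groups were again well apart, at a log2 fold change of 0.94 ± 0.12 (SE, edgeR adjusted p = 0.0127). Without weeping tree 1 and standard tree 8 the log2 fold changes were 1.01 and 0.93, and the adjusted p was 0.0811 for both.

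Among the genes lower in weeping trees, ppa002475m.g, at 26068303 to 26071131, had the smallest p. It had 14, 16.1, 17.8 and 15.7 CPM in weeping trees, against 32.8, 32.7, 30.1 and 25.9 CPM in standard trees. No weeping tree reached the lowest standard tree. The log2 fold change was -0.95 ± 0.11 (SE, edgeR adjusted p = 0.0109). The next, ppa011115m.g, at 12968845 to 12970005, had 5.78, 7.88, 10.7 and 9.41 CPM in weeping trees, against 39.6, 58.9, 26.9 and 30.6 CPM in standard trees. Standard tree 8 was the highest and weeping tree 1 the lowest, and the groups were far apart. Its log2 fold change was -2.22 ± 0.27 (SE, edgeR adjusted p = 0.0127). It was the 1 gene of scaffold 2 that still passed without weeping tree 1 and standard tree 8, at a log2 fold change of -1.82 (edgeR adjusted p = 0.0382). Single-position reads made up only 67.0% of its total, so reads shared with a near-identical copy may be part of its level.

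The other 20 genes named by the same rule, 10 in each direction, ran from 1021940 to 26197660. The widest difference among the higher genes was at 21264402 to 21265581, with 4.74, 3.52, 4.92 and 3.70 CPM in weeping trees, against 0.919, 0.619, 1.57 and 0.805 CPM in standard trees. All weeping trees lay above all standard trees, at a log2 fold change of 2.09 ± 0.30 (SE, edgeR adjusted p = 0.0138). Among the lower genes the gene at 13659434 to 13660172 had 17.5, 24.8, 25.9 and 48.8 CPM in weeping trees, against 166, 119, 81.1 and 105 CPM in standard trees. Weeping tree 4 came nearest to the standard trees, and the log2 fold change was -2.02 ± 0.32 (SE, edgeR adjusted p = 0.0155).

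Along scaffold 2, the share of tested genes called for habit ran from 3.64 to 18.6% over the 1 Mb steps with at least 20 tested genes. It was highest at 22 to 23 Mb, where 27 of 145 tested genes passed (18.6%), 11 of them higher and 16 lower in weeping trees. The next highest was 18 to 19 Mb, with 16 of 110 (14.5%). Many other steps also lay above the 11.5% of all tested genes, among them 0 to 1 Mb (12.28%), 10 to 11 Mb (13.64%) and 19 to 20 Mb (12.75%). The lowest share among steps with at least 20 tested genes was at 2 to 3 Mb, with 2 of 55 (3.64%). The following 3 steps were low too: from 3 to 6 Mb 5 of 119 tested genes passed (4.2%), 0 higher and 5 lower in weeping trees. In this stretch trees of the same habit also differed more from each other, with a median dispersion of 0.0662 against 0.0276 over the scaffold. Steps without higher genes were found elsewhere too: at 13 to 14 Mb 5 of 39 tested genes passed (12.8%), 0 higher and 5 lower. The place of the highest step was not stable: it moved to 7, 13, 16 or 19 Mb when trees were left out, and to 0.5 Mb with 0.5 Mb steps.

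**Figure D1:**
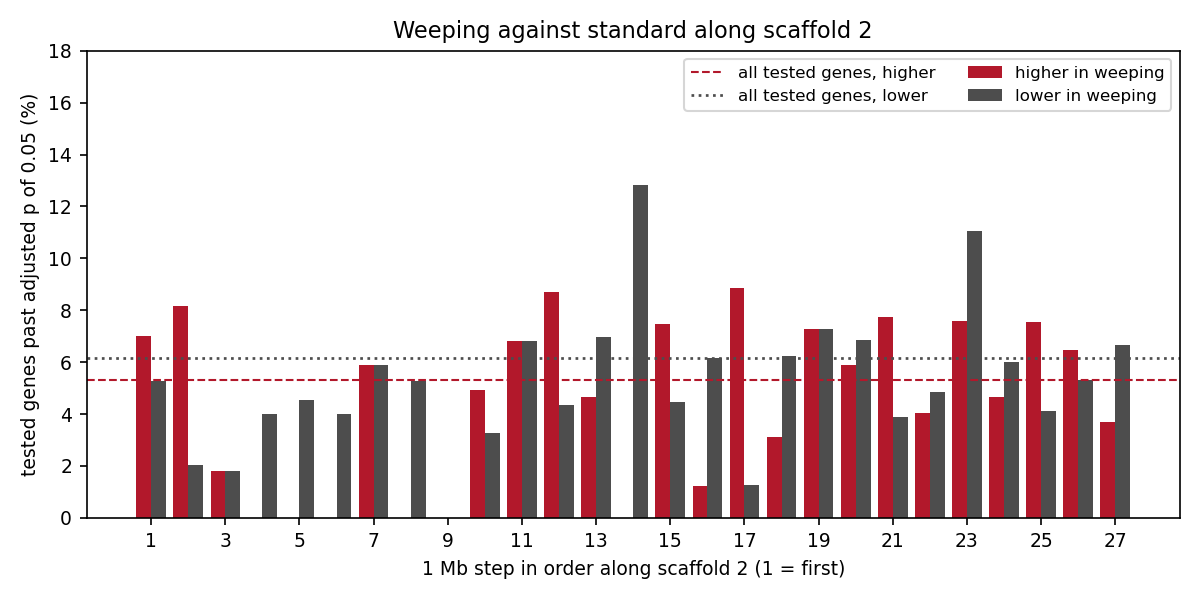
Percent of tested genes that passed an adjusted p of 0.05 in each 1 Mb step along scaffold 2, split into genes higher (red) and lower (grey) in weeping than in standard trees. The lines give the percent over all tested genes of the genome, 5.33 for higher (dashed) and 6.18 for lower (dotted). No gene was higher in steps 4 to 6, 8, 9 and 14.

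The second question, apart from habit, was which genes were near absent in some trees and plainly present in others. A gene was called near absent in some trees where at least 1 tree was at or below 0.2 CPM and at least 1 tree at or above 2 CPM. On scaffold 2 this held for 35 of the 1973 genes at or above 2 CPM in a tree (1.77%), where it held for 1.36% of all such genes. It held for 1.31% of such genes on the other scaffolds and for 2.28% on scaffold 8. These genes were chosen for differences between trees, so their values are a description. Only 18 of the 35 had enough reads for the habit test, and 2 of those were called, where 11.5% of all tested genes were.

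Few sets of trees accounted for most of the 35 genes. Standard tree 8 alone was low in 8 genes, between 3309169 and 5655571. In 7 genes, between 456375 and 13754716, the 6 trees other than weeping tree 1 and standard tree 8 were low. The reverse, with weeping tree 1 and standard tree 8 low, was found in 4 genes between 617006 and 7818146. Weeping tree 1 alone was low in 3 genes between 16165127 and 25276560. The remaining 13 genes fell into 10 other sets, none with more than 2 genes.

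Because a fixed limit separates trees that lie just above and just below it, genes were also ordered by tree and divided at their widest gap, a rule added after seeing the data. A gene was called split where the widest gap between neighbouring trees was at least 4-fold on CPM + 0.1, with a highest value of at least 1 CPM. This found 40 of 2088 genes (1.92%), beside 1.31% of all such genes and 1.23% on the other scaffolds. Of the 40, 25 were also near absent in some trees by the first rule. Weeping tree 1 and standard tree 8 together were the smaller side in 18 split genes, and standard tree 8 alone in 13. Over all scaffolds 20 genes had weeping tree 1 and standard tree 8 on the smaller side, so 18 of those 20 lay on scaffold 2. For standard tree 8 alone the count over all scaffolds was 34, of which 13 were on scaffold 2. Of the 24 split genes with enough reads for the habit test, 1 was called, beside the same 11.5% of all tested genes. Where a gap sets 1 tree of a habit apart, the spread within that habit is wide. Few calls were thus likely from the choice itself, and this count is no result about habit.

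**Figure D2:**
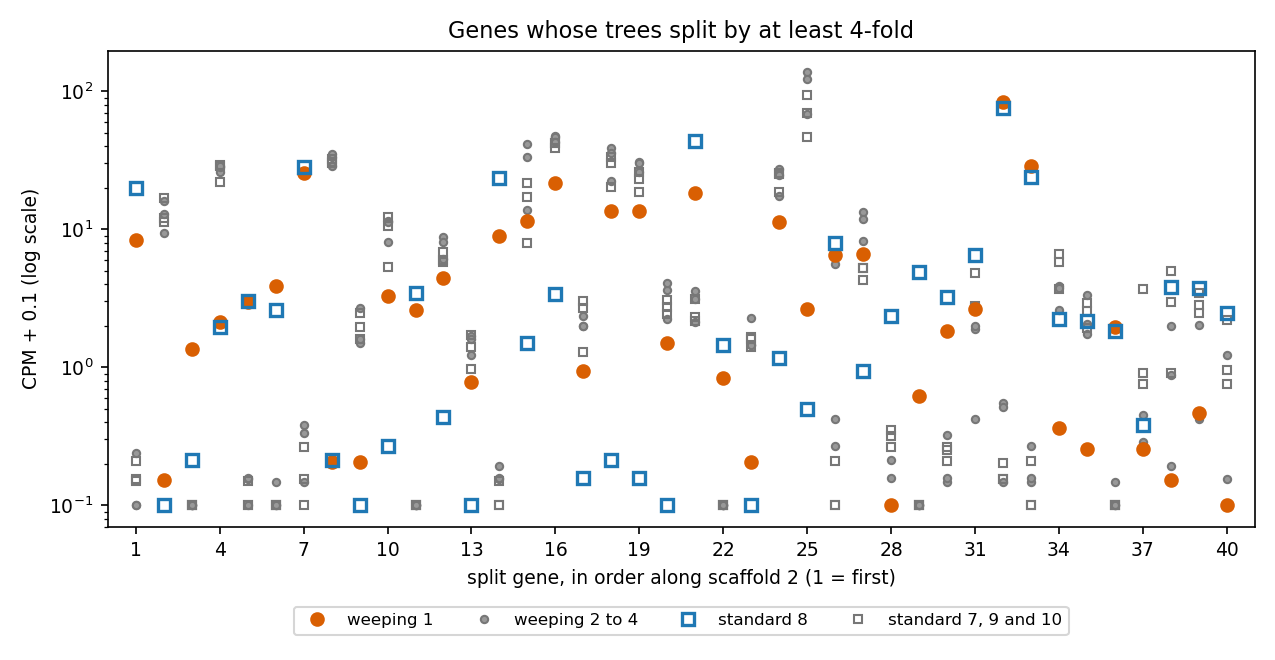
CPM + 0.1 on a log axis in each of the 8 trees for the 40 split genes, in order along scaffold 2, with weeping tree 1 as filled orange circles, weeping trees 2 to 4 as grey circles, standard tree 8 as open blue squares and standard trees 7, 9 and 10 as open grey squares. In the 18 genes with weeping tree 1 and standard tree 8 on the smaller side, both lie above the other 6 trees in 12 genes and below them in 6. They are not always at the same level, and genes 37 to 40 show other sets.

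Weeping tree 1 and standard tree 8 shared genes that the other 6 trees hardly expressed. The most abundant was at 13752300 to 13753142, with 83.1, 0.0463, 0.447 and 0.411 CPM in weeping trees 1 to 4, against 0.0541, 75.8, 0.0543 and 0.101 CPM in standard trees 7 to 10. The next gene along, at 13754074 to 13754716, lay 931 bp further on. It had 28.6, 0.0463, 0.168 and 0.0588 CPM in weeping trees, against 0.108, 23.7, 0 and 0 CPM in standard trees. In both genes 1 tree of each habit was high and the other 3 of each habit were at or near 0, so the habits overlapped. Both genes had single-position reads only.

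A further cluster of this kind held 3 genes within 6.60 kb at 1.9 Mb. The gene at 1902596 to 1904171 had 25.6, 0.0463, 0.279 and 0.235 CPM in weeping trees, against 0.162, 28.2, 0.0543 and 0 CPM in standard trees. The smaller genes at 1897574 and 1898313 had 2.86 and 3.80 CPM in weeping tree 1 and 2.93 and 2.48 CPM in standard tree 8, and at most 0.0588 CPM in the other trees. Weeping tree 1 and standard tree 8 were close to each other in the first 2, and weeping tree 1 was the higher at 1898313. The first gene of this kind on the scaffold lay at 456375 to 456949, with 8.22, 0.139, 0 and 0 CPM in weeping trees, against 0.108, 19.8, 0.0543 and 0.0503 CPM in standard trees. Here standard tree 8 was clearly above weeping tree 1, and 63.6% of reads were placed at a single position. Over the 12 genes the level in weeping tree 1 was 0.373 to 1.53 times that in standard tree 8, and above it in 4 genes.

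In 6 genes weeping tree 1 and standard tree 8 were low and the other 6 trees high. The gene at 2361009 to 2364643 had 0.104, 33.3, 28.5 and 35.1 CPM in weeping trees, against 32.3, 0.113, 30.7 and 30.2 CPM in standard trees. Both low trees were near absent, while the other 6 lay within a narrow range whatever their habit. The gene at 617006 to 618452, with 61.2% of reads at a single position, had 0.0521, 9.31, 16 and 12.9 CPM in weeping trees, against 11.2, 0, 11.9 and 16.7 CPM in standard trees. The gene at 10120827 to 10123966 had 2.55, 137, 122 and 68.3 CPM in weeping trees, against 46.9, 0.394, 93.5 and 69.8 CPM in standard trees. Neither tree was wholly without reads there, and weeping tree 1 was above standard tree 8. Over the 6 genes weeping tree 1 was above standard tree 8 in 5. None of the 6 was called for habit, where 11.5% of all tested genes were. The log2 fold changes were 0.04, -0.08 and 0.62 for the 3 genes given. Genes of this kind have 1 low tree in each habit, so a habit call was unlikely from the choice itself.

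In 1 gene weeping tree 4 joined these trees. At 10158916 to 10161595 the levels were 6.4, 0.324, 0.168 and 5.47 CPM in weeping trees, against 0, 7.82, 0.109 and 0 CPM in standard trees. Weeping trees 1 and 4 and standard tree 8 were within 1 range, and the other 5 trees far below it. No other gene of the genome split in this way.

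Standard tree 8 alone was low in 11 split genes, and weeping tree 1 was lowest of the remaining trees in 9 of them. The gene at 5597128 to 5601258 had 13.4, 38.4, 35.6 and 22.2 CPM in weeping trees, against 30.0, 0.113, 20.2 and 33.1 CPM in standard trees. The gene at 5634385 to 5639075 had 13.5, 30.5, 25.9 and 30.0 CPM in weeping trees, against 26, 0.0563, 18.4 and 23.2 CPM in standard trees. In both, standard tree 8 had almost no reads and weeping tree 1 lay between it and the other 6 trees. The short gene at 5654999 to 5655571 showed the same order at a low level, with 1.41, 3.52, 3.97 and 2.12 CPM in weeping trees, against 2.97, 0, 2.33 and 2.62 CPM in standard trees.

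In 10 of these 11 genes weeping tree 1 was at 34.6 to 74.4% of the 8-tree median, and in the last, at 11473580 to 11477250, at 111%. Standard tree 8 was at 0 to 14.4% of the median in the 11 genes, and the other 6 trees at 51.3 to 270%. In the last gene 37.3% of reads were placed at a single position, and in 3 of the 11 this share was under 90%. Standard tree 8 alone was high in 2 genes, both at a low level. The clearer of them, at 11962198 to 11964428, had 0.521, 0, 0 and 0 CPM in weeping trees, against 0, 4.78, 0 and 0 CPM in standard trees, so weeping tree 1 was the only other tree with reads. In the other, at 11524220 to 11527984, the levels were 0, 0, 0.112 and 0.0588 CPM in weeping trees, against 0.162, 2.25, 0.217 and 0.252 CPM in standard trees. Weeping tree 1 had no reads there, while standard trees 7, 9 and 10 had 3, 4 and 5 reads, and 18.2% of all reads were placed at a single position.

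**Figure D3:**
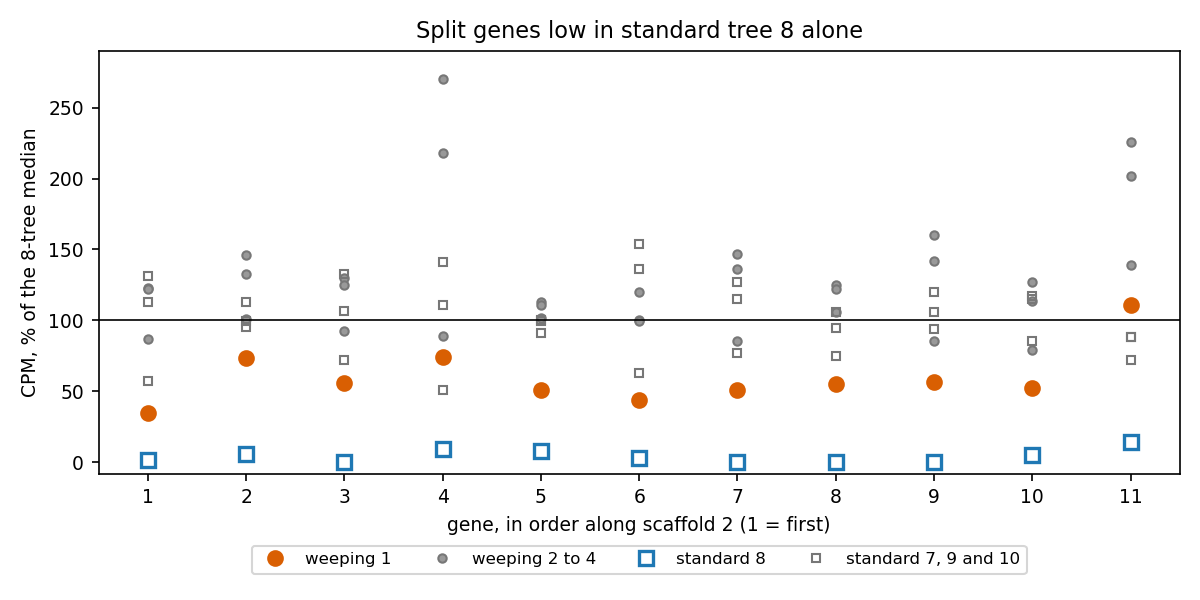
Level of each tree as percent of the 8-tree median CPM (line at 100) for the 11 split genes low in standard tree 8 alone, in order along scaffold 2, with weeping tree 1 as filled orange circles and standard tree 8 as open blue squares. In the first 10 genes weeping tree 1 lies at 34.6 to 74.4%, and standard tree 8 lies at 0 to 14.4% in all 11.

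The third question was where blocks of the same pattern began and ended. By the strict rule, at least 3 near absent genes in a row with the same low trees, scaffold 2 held 1 block. It was low in standard tree 8, held 4 genes, and ran from 4978029 to 5655571, over 0.678 Mb. The near absent gene before it ended at 4385810 and the next began at 7815175, so its borders are known only to within these gaps. Inside it lay 17 genes at or above 2 CPM in a tree, so most genes of the block were not near absent in any tree. With 1 near absent gene of another set allowed between successive members of a block, it grew to 8 genes from 3309169 to 5655571, over 2.35 Mb, with 89 genes at or above 2 CPM inside. Near absent genes of another set lay inside it at 3748021 and 4383605. A run of 3 genes low in the 6 trees other than weeping tree 1 and standard tree 8 then also appeared, from 456375 to 1898803.

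Split genes gave a longer series of stretches in the same order. From 456375 to 2574455 there were 9 split genes, of which 8 had weeping tree 1 and standard tree 8 on the smaller side and 1, at 879794, had weeping tree 1 alone. From 3309169 to 5655571, 9 of 11 were low in standard tree 8 alone, and the other 2, at 3748021 and 4383605, were high in weeping tree 1 and standard tree 8. Weeping tree 1 and standard tree 8 were again together in 3 genes from 6750615 to 7818146, and standard tree 8 alone was low at 8069244. Beyond 10 Mb the sets alternated more, with 3 genes of standard tree 8 alone from 11473580 to 11964428, and 4 genes of both trees between 12960954 and 16353319. Between those 4 lay 1 gene low in weeping tree 2 alone and 2 low in weeping tree 1 alone. The last gene with weeping tree 1 and standard tree 8 together, at 16352972 to 16353319, had 1.87, 0.0463, 0 and 0 CPM in weeping trees, against 0, 1.74, 0 and 0 CPM in standard trees.

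After that gene the pattern was not seen again. The next split gene began at 19040981, 2.69 Mb further on, and was high in standard tree 7. The stretch from 456375 to 16353319 was drawn from the first to the last split gene with both trees on the smaller side, which largely fixes the shares inside and outside it, so these are a description. In it, 36 of 700 genes at or above 1 CPM were split (5.14%). From there to the end of the scaffold 4 of 1359 were (0.294%), though this stretch held more genes. Before 456375 there were 29 such genes, of which 0 were split. Within the first stretch 664 genes were not split, so the pattern touched a minority of the genes there.

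The 4 split genes beyond 19 Mb had other sets of trees. At 21743379 to 21744063 the levels were 0.0521, 0.0927, 0.782 and 1.88 CPM in weeping trees, against 4.87, 3.71, 0.814 and 2.87 CPM in standard trees. At 23936618 to 23937266 they were 0, 0, 0.0559 and 1.12 CPM in weeping trees, against 2.11, 2.36, 0.651 and 0.856 CPM in standard trees. Weeping trees 1 and 2 were low in both, and weeping tree 4 overlapped with the standard trees. At 22580305 to 22580841 weeping trees 1, 2 and 3 had 0.364, 0.324 and 0.335 CPM, weeping tree 4 had 1.94 CPM, and the standard trees had 2.38, 3.66, 3.37 and 2.72 CPM. The groups did not overlap there. It was the 1 split gene called for habit, at a log2 fold change of -2.06 (edgeR adjusted p = 0.0489). The genes at 21743379 and 23936618 had log2 fold changes of -2.17 and -2.41 and were not called (edgeR adjusted p = 0.126 and 0.153).

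Differences between trees were not limited to genes at the limits of detection. For every tested gene, the distance of each tree from the 8-tree median was taken. In the step at 4 to 5 Mb, weeping tree 1 was at least 2-fold from the median in 6 of 44 tested genes (13.6%), lower in 3 and higher in 3. Standard tree 8 was that far from the median there in 17 genes (38.6%), 14 lower and 3 higher. At 3 to 4 Mb it was 10 of 50 genes for weeping tree 1 and 14 of 50 (28%) for standard tree 8. Weeping tree 1 had shares like that at 4 to 5 Mb elsewhere too, among them 14.9% at 14 to 15 Mb and 13.6% at 10 to 11 Mb. Over all tested genes of the genome the share was 7.43% for weeping tree 1 and 5.76% for standard tree 8. Over the 2075 tested genes of scaffold 2 it was 6.84% and 6.99%. From 456375 to 16353319, weeping tree 1 was off by 2-fold in 10.9% and standard tree 8 in 12.7% of 679 tested genes, including the split genes by which this stretch was drawn. After it the shares for these trees were 4.98% and 4.25% of 1366 tested genes, and the contrast in part restates that choice. Of the other 6 trees the highest share in either stretch was 4.25%, in standard tree 7 after 16353319.

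**Figure D4:**
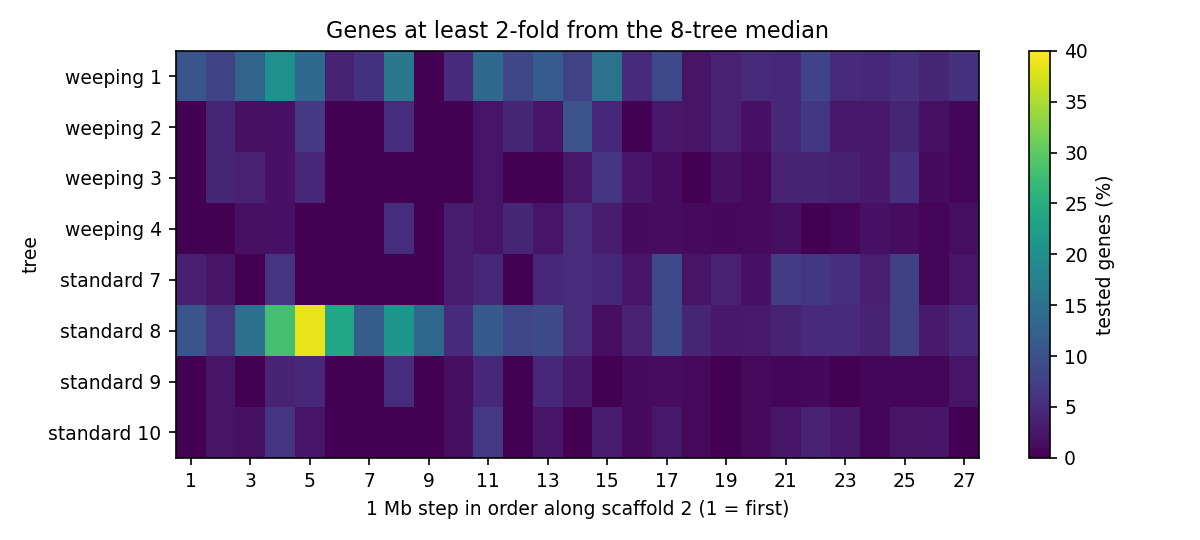
Percent of tested genes that lay at least 2-fold from the 8-tree median (colour) in each tree, weeping above standard, for each 1 Mb step along scaffold 2. The brightest cell is standard tree 8 in step 5 at 38.6%, and weeping tree 1 is brightest in step 4.

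Pairs of trees were compared along the scaffold by their median absolute log2 difference in each step, as a ratio to the same over all tested genes. In the step at 4 to 5 Mb the 7 pairs that include standard tree 8 had ratios of 1.80 to 5.19, and the 21 pairs without it 1.00 to 3.16. Standard trees 8 and 10 were the farthest apart for their usual distance, with a median log2 difference of 0.97 there and 0.19 over all tested genes. Weeping tree 1 was nearer to standard tree 8 than any other tree was, at a ratio of 1.80 and a median log2 difference of 0.63. Standard tree 9 was almost as near to standard tree 8 in difference, at 0.657, though its ratio was 2.78. Between weeping tree 1 and standard tree 8 the ratio was 0.672 in the 55 tested genes at 2 to 3 Mb. It was 0.504 in the 19 tested genes at 7 to 8 Mb, the smallest ratio of the 28 pairs. In the first of these steps weeping trees 2 and 3 had a lower ratio still, at 0.585. In the second, weeping trees 2 and 3 had a median log2 difference of 0.0979, against 0.1765 between weeping tree 1 and standard tree 8. Low ratios for weeping tree 1 and standard tree 8 were not limited to the stretch of split genes. They also had the lowest ratio of the 28 pairs at 21 to 22 Mb, at 0.714 over 124 tested genes. At 17 to 18 Mb their ratio was 0.716 over 96 tested genes. A low ratio is relative to the usual distance of this pair, 0.35, and other pairs were closer in median log2 difference. At 21 to 22 Mb it was 0.25 for weeping tree 1 and standard tree 8, and 0.152 for standard trees 7 and 10.

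**Figure D5:**
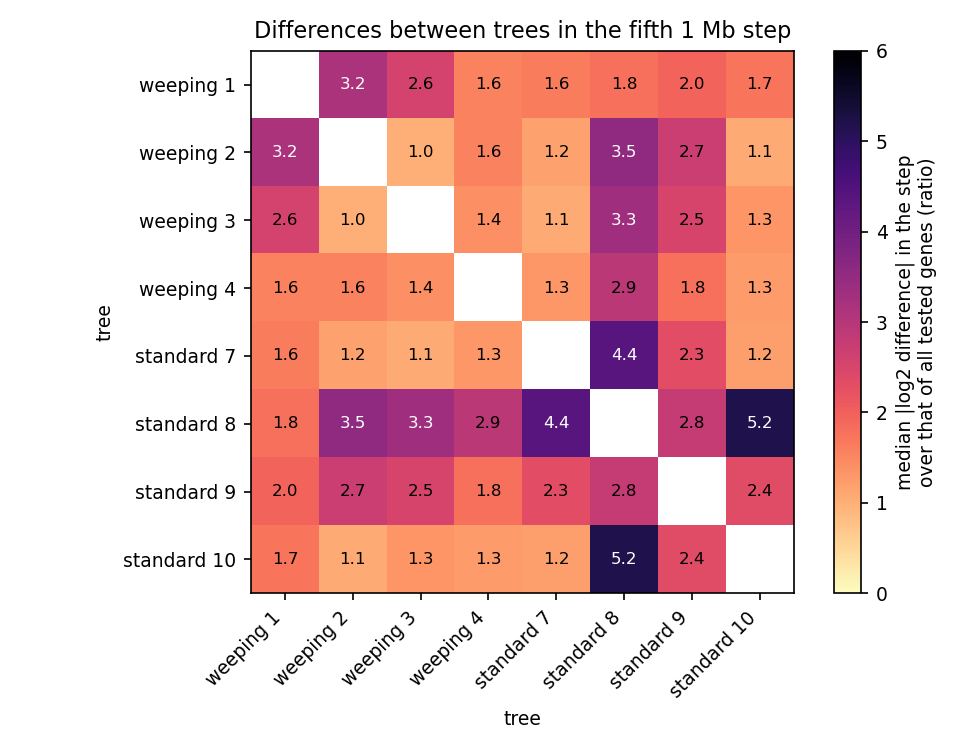
Median absolute log2 difference in CPM between each pair of trees over the 44 tested genes of the fifth 1 Mb step, divided by that of the same pair over all tested genes of the genome. The row of standard tree 8 holds the highest ratios, up to 5.19, and its lowest ratio, 1.80, is with weeping tree 1.

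The step at 4 to 5 Mb was also where reads were least often placed at a single position, 74.0% against 96.6% over the scaffold, and 23 of its 44 tested genes were under 90%. Counted over single-position reads alone, the same step still had the largest difference between trees. Of the 40 split genes 14 were under 90%, and the part that shared reads play in their levels was not tested. On scaffold 8, which held 46 split genes, the commonest smaller side was weeping tree 1 with standard tree 7, in 14 genes, and 0 genes had weeping tree 1 with standard tree 8. On scaffold 4, which held 31 split genes, the commonest smaller side was standard tree 8 alone, in 10 genes. Over the other scaffolds together, standard tree 8 alone was the smaller side in 21 genes. Splits between trees were thus found on other scaffolds too, with other trees on scaffold 8 but with standard tree 8 on scaffold 4.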

How the data were processed

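The authors deposited counts per gene for every library, as total exon reads, which include reads placed at several positions, and unique exon reads, placed at 1 position, per the file headers. The reads were trimmed, per the file headers. Which aligner, annotation and build they used is not given in the sources used here. Gene positions, a further deposited value, are those of the table. RNA was extracted with an Omega SQ kit and 2% PVP and sequenced from TruSeq libraries, per the labels' protocols.

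Columns were matched to trees by habit and number, and 120 other columns of per-library values were not used. Every library counted as 1 replicate, since even the closest, weeping trees 2 and 3, had a chi-square per degree of freedom of 16.2 between their counts. Tree numbers are not shared between habits, so no pairs were made.

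Total exon reads of all 27864 genes were fitted with edgeR 4.0.16 under R 4.3.3 (minimum count of 10 in filterByExpr, TMM factors of 0.965 to 1.04, quasi-likelihood F-test, Benjamini-Hochberg adjustment at 0.05 over 18520 genes). The code was tested on simulated data. Levels are CPM of library totals, not TMM-scaled, and pseudocounts of 0.1 CPM were used for splits. Steps of 1 Mb took genes by midpoint. Single values were compared by exact permutation over 70 splits. Python 3.11.15 and matplotlib 3.10.9 drew the figures. Positions were counted from 1.

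Genes named for habit were taken from those without overlap between groups, 12 per direction by p. Near absent genes were named from each set of trees held by 3 or more genes, from block ends and by highest CPM. Further split genes were named after their values were seen. The members, rules and lists were chosen with earlier results of these data known. As 0 of 27864 identifiers matched the RefSeq table (NCBIv2), no more than 2 identifiers in each direction are given, and gene families could not be counted. Alternatives were RLE and upper-quartile scaling, other filters and limits, DESeq2 1.42.0, limma-voom (limma 3.58.1), unique reads, lane, and leaving out trees.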

Additional observations from a re-analysis of the deposited data

Results flagged for a closer look

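Of 86 groups of 4 trees examined for named genes, 17 held a tree whose gap to the next was a very large part of the group's range. Chance gives about 1 group in 20, but the genes named for low trees or for high dispersion were chosen for such trees, so that rate does not hold for them. The gap, as a share of the group's range, is given for each.

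Weeping tree 1 stood above the other weeping trees at 13754074 to 13754716 (0.996), 4383605 to 4385810 (0.996), 456375 to 456949 (0.983), 13752300 to 13753142 (0.995), 1902596 to 1904171 (0.991) and 6750615 to 6751873 (0.912). Standard tree 8 stood above the other standard trees in the same genes, at shares of 0.995, 0.998, 0.997, 0.999, 0.994 and 0.976 in that order. At 4383605 to 4385810 the levels were 8.80, 0.0927, 0.0559 and 0.0588 CPM in weeping trees 1 to 4, against 0, 23.6, 0 and 0.0503 CPM in standard trees 7 to 10. At 6750615 to 6751873 they were 18.2, 2.04, 3.02 and 3.47 CPM in weeping trees, against 2.22, 43.5, 3.04 and 2.06 CPM in standard trees, so the other 6 trees were low but not near absent.

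Standard tree 8 stood below the other standard trees at 2361009 to 2364643 (0.935). Among the 4 remaining groups, weeping tree 4 was highest at 23936618 to 23937266 (0.950) and at 13697799 to 13702325 (0.852), and weeping tree 3 at 14630565 to 14633711 (0.928). Standard tree 9 was highest at 20620395 to 20629963 (0.927), where the standard trees spanned only 5.46 to 5.86 CPM.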

How the results depend on the processing

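No paired analysis was possible because the weeping trees are numbered 1 to 4 and the standard trees 7 to 10. On scaffold 2, 226 genes passed the habit test, and 2131 over all scaffolds. With DESeq2 the counts were 417 and 3872, at an adjusted p of 0.01 they were 0 and 9 (621 genes of scaffold 2 had an unadjusted p under 0.05), and with a 2-fold minimum 67 and 710. Leaving out 1 tree gave 2 to 423 and 20 to 3923, and leaving out weeping tree 1 with standard tree 8 gave 1 and 18. RLE and upper-quartile scaling, other filters, limma-voom, unique reads and lane kept both counts within 1.5 times. The genes called changed more with lane than these counts. Of the 226 and 2131 genes, 122 and 1267 were still called with lane as a term, and 132 and 1292 in lane 6 alone. Near absent genes numbered 19 at a limit of 0.05 CPM, 63 at 0.5 CPM, 69 with presence at 1 CPM, 12 at 5 CPM and 23 to 35 without 1 tree, where 35 had been found; 23 was without standard tree 8. The 1 block became 2 with unique reads, 0 at 0.05 CPM, 4 at 0.5 CPM, 2 with presence at 1 CPM, 0 at 5 CPM, 6 with 2 genes to a block, 2 with 1 gene of another set allowed between members, and 0 to 2 without 1 tree, with 0 for standard tree 8. Split genes numbered 21 at a gap of 3, 64 at 1.5, 23 with a pseudocount of 0.5 CPM, 21 with a highest level of 5 CPM and 28 to 48 without 1 tree, where 40 had been found. The step with most habit calls began at 22 Mb, at 0.5 Mb with 0.5 Mb steps, and at 7 to 22 Mb without 1 tree, whereas that with the widest tree differences began at 4 Mb in every alternative run for it. The difference in the share of reads was 0.235 to 0.317 points without 1 tree, at p = 0.0571 each time, the smallest that 4 against 3 trees allow in an exact permutation test. The causes were not tested.

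Of the 24 genes named for habit, calls were lost in 22 without weeping tree 2, in 23 without weeping tree 1 and standard tree 8, in 5 without standard tree 8 and in 1 without standard tree 10, with the same direction throughout. Levels under about 0.2 CPM rest on 4 reads or fewer, so that near absent and absent cannot be told apart at this depth.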
